A study of Mus musculus with 22 samples.

Results

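Chemokines and their receptors were taken as every gene whose symbol in the array's annotation begins with Ccl, Cxcl, Ccr or Cxcr followed by a digit, and each was read from its probe set with the highest mean. This gave 52 of 19505 named genes, made up of 23 CC ligands, 13 CXC ligands, 10 CC receptors and 6 CXC receptors. RNA came from whole hearts of male C57/BL6NCr mice aged 3 to 6 months and housed alone at 30 °C, with 1 Clariom S Mouse array per mouse. Single housing is as the sample labels give it, while the study's methods describe housing in groups. The groups were 5 TRα1+m mice on T3 and 5 on water, and 6 wild-type mice on T3 and 6 on water. TRα1+m mice carried 1 copy of the thyroid hormone receptor α1 with the R384C substitution and kept 1 wild-type copy. The mutant receptor binds T3 weakly and can be reactivated by high hormone levels. T3 was given in the drinking water at 0.5 mg/L for 12 days, and all 4 groups drank water with 0.01% BSA. The mutation was present in every tissue from conception and T3 reached the whole body, so the design does not separate effects on heart cells from effects elsewhere. By the study's account, T3 in serum reached a somewhat higher level in TRα1+m mice given the hormone than in wild-type mice given it, and hormone level and genotype cannot be told apart between those groups.

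Chemokines are small secreted proteins that guide the movement of white blood cells, and they act through G protein-coupled receptors on the target cell. The CC and CXC families differ in the spacing of their first conserved cysteines. In the heart, ligands of Ccr2 draw monocytes from the blood, Cxcl12 from stromal and endothelial cells acts through Cxcr4, and the Ccl21 proteins of lymphatic vessels guide cells that carry Ccr7.

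Values are log2 probe set levels as deposited, so a difference of 1 is a doubling of signal. The 8 cardiomyocyte markers, which check the labelled tissue, averaged between 18.06 and 18.33 on every array, far above the negative controls. The median gene level of an array lay between 7.02 and 7.08 with T3 and between 6.99 and 7.09 without it in TRα1+m, and between 6.51 and 6.62 with T3 and between 6.46 and 6.63 without it in wild type. The arrays of TRα1+m mice thus lay higher as a whole, by a median of 0.35 on T3 and 0.357 on water, and each genotype comparison below is given under 2 scalings. Array 3 of wild-type mice on water and array 6 of wild-type mice on T3 stood apart from the rest on the third principal component of all genes (-37.9 and -44.2). Nothing in the labels ties arrays to batches, and p-values measure the spread between mice.

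Promoter sequence is shown for members on which the T3 results turn. Ccl9, Ccl6, Ccl12 and Cxcl9 had the 4 widest T3 differences in TRα1+m hearts, Cxcl12 was the member whose T3 effect differed between genotypes, and Cxcl10 is the neighbour of Cxcl9 on chromosome 5. RefSeq (GRCm38.p6) gave 41 promoter sequences for 37 of the 52 members. Windows from 250 bases before to 50 bases after the start were searched on both strands for 5 motifs. These were the interferon-stimulated response element (ISRE, GAAA and again GAAA after any 2 bases), the interferon-γ activated site TTCNNNGAA (GAS), the NF-κB consensus, the thyroid hormone receptor half-site AGGTCA and its direct repeat (AGGTCA and again AGGTCA after any 4 bases). The 250 bases before each start are printed 5′ to 3′ on the gene's strand, and capitals mark the letters that matched a motif.
Ccl9 (chr11:83578637-83578886, minus strand): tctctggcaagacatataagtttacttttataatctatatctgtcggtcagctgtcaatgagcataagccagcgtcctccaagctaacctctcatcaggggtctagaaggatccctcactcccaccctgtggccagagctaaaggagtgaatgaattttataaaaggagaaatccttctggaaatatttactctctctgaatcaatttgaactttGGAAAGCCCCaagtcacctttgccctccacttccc
Ccl6 (chr11:83593088-83593337, minus strand): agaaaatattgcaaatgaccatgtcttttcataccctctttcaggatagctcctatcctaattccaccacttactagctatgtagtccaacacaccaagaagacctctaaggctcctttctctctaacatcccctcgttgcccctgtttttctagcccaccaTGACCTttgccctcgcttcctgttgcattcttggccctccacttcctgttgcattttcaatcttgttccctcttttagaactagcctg
Ccl12 (chr11:82101595-82101844, plus strand): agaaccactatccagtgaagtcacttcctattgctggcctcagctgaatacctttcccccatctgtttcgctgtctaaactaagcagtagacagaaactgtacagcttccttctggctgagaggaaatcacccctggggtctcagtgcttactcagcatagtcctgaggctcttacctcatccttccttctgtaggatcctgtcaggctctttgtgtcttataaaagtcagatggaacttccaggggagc
Cxcl9 (chr5:92328080-92328329, minus strand): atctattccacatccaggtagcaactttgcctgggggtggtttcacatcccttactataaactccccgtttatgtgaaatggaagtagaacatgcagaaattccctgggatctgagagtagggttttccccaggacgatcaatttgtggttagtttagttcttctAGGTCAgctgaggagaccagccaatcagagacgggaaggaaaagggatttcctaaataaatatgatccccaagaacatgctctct
Cxcl10 (chr5:92348890-92349139, minus strand): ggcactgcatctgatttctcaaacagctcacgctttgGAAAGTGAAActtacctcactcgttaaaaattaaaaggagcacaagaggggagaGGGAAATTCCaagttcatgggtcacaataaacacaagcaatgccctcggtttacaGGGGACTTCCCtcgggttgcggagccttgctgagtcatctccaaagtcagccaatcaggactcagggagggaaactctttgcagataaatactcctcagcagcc
Cxcl12 (chr6:117168285-117168534, plus strand): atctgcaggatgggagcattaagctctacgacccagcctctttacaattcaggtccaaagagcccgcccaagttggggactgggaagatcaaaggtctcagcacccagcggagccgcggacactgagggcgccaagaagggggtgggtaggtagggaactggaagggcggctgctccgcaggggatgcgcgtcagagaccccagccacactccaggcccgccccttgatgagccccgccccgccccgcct
Cxcl9 held a half-site 85 bases before its start and Ccl6 held 1 on the opposite strand 88 bases before its start. Ccl9 held an NF-κB match 35 bases before its start. Cxcl10 held an ISRE match 213 bases before its start, with NF-κB matches nearer to it. Neither Cxcl12 nor Ccl12 held any of the 5 motifs in this window. Over the 41 member promoters the half-site was present in 12, NF-κB in 11, GAS in 4, ISRE in 3 and the direct repeat in 0. The shares among all 32851 promoters of the same length were 16.3% for the half-site, 8.46% for NF-κB, 8.3% for GAS, 3.44% for ISRE and 0.0152% for the direct repeat. A match describes the letters of the window and shows no binding.

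Most chemokine genes lay near or below the array's background in whole heart. Negative-control probe sets, 5222 in all, had median levels of 6.52 with T3 and 6.68 without it in TRα1+m hearts, and of 6.14 with T3 and 6.23 without it in wild-type hearts. Of the 52 members, 20 had a group mean above this median in all 4 groups, 27 in none and 5 in some groups. Only 4 members, Cxcl12 and the 3 Ccl21 genes, exceeded the 95th percentile of the negative controls in all 4 groups. The CC ligands above the median in all groups were Ccl6, Ccl7, Ccl9, Ccl11, Ccl20, Ccl21a, Ccl21b, Ccl21c, Ccl25 and Ccl27a. The CXC ligands were Cxcl3, Cxcl9, Cxcl12, Cxcl13, Cxcl14 and Cxcl16, and the receptors were Ccr2, Ccr7, Cxcr3 and Cxcr4. Those that crossed the median between groups were Ccl2, Ccl3, Ccl12, Ccl24 and Ccl28.

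**Figure D1:**
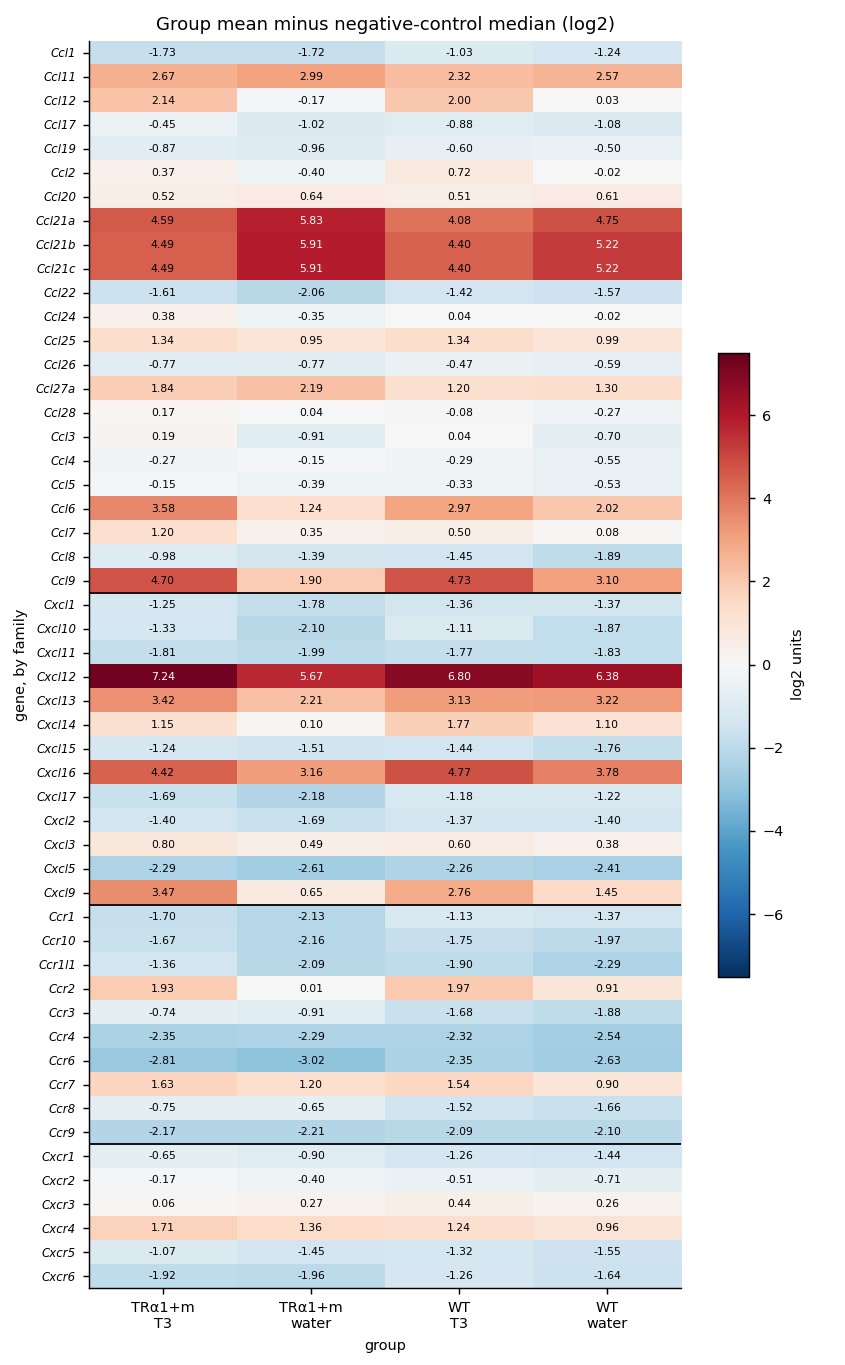
Group mean of each of the 52 chemokine and receptor genes minus the negative-control median of the same group, in log2 units, for TRα1+m and wild-type (WT) mice on T3 or water. Cxcl12, at 7.24, 5.67, 6.80 and 6.38 across the columns, had the strongest colour, and most receptors lay below 0.

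The levels of several of these genes differed little from the controls. Ccl12, a mouse ligand of Ccr2, lay 0.17 below the negative-control median in TRα1+m mice on water and 0.03 above it in wild-type mice on water, so its T3 differences are measured from a level at the background. The lowest members were Ccr4, Cxcl5 and Ccr6, with means over all arrays of 3.99, 3.98 and 3.69, below the limit of 4 set for testing. Just above that limit were Ccr9 at 4.23 and Ccr1l1 at 4.45. The other 49 members were tested. Ccl21b and Ccl21c had identical deposited values, which are printed once, while the counts of members include both. Ccl21a is a near-identical copy, so probes may read each other's transcripts.

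T3 raised Ccl9, Ccl6, Ccl12, Cxcl9, Cxcl16 and Ccr2 in both genotypes and lowered the Ccl21 genes. In TRα1+m hearts 11 of 49 members rose and 4 fell (22.4% and 8.16%), against 8.24% and 6.92% of all 21092 probe sets tested, in limma with Benjamini-Hochberg adjusted p below 0.05 over all probe sets. In wild-type hearts 9 rose and 3 fell (18.4% and 6.12%), against 6.26% and 6.49% of all probe sets. The shares that fell were near the background in both genotypes, and the 3 Ccl21 genes made up all of the falling members in wild type. The median member difference was 0.22 in TRα1+m and 0.12 in wild type, beside medians over all probe sets of -0.0185 and 0.00975. Of the 20 members above the negative-control median in all groups, T3 raised 7 and lowered 4 in TRα1+m and raised 6 and lowered 3 in wild type. Of the other 29 tested members it raised 4 in TRα1+m and 3 in wild type, and lowered 0 in either. Shares of all probe sets were not counted by level, so this split cannot be read as particular to chemokine genes. After quantile normalization T3 raised 12 members and lowered 4 in TRα1+m, against 8.63% and 7.95% of all probe sets, and raised 8 and lowered 3 in wild type, against 6.37% and 6.45%.

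By family, T3 raised 5 of 23 CC ligands, 4 of 12 tested CXC ligands, 2 of 8 tested CC receptors and 0 of 6 CXC receptors in TRα1+m hearts. In wild-type hearts it raised 5 CC ligands, 3 CXC ligands, 1 CC receptor and 0 CXC receptors. Genes that rose in both were Ccl3, Ccl6, Ccl9, Ccl12, Ccr2, Cxcl9, Cxcl14 and Cxcl16, and those that fell in both were Ccl21a, Ccl21b and Ccl21c. Ccl2 passed the test in wild type only, and Ccl17, Ccr1l1 and Cxcl12 passed in TRα1+m only. A call in 1 genotype does not show that the effects differ, which is tested further on.

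**Figure D2:**
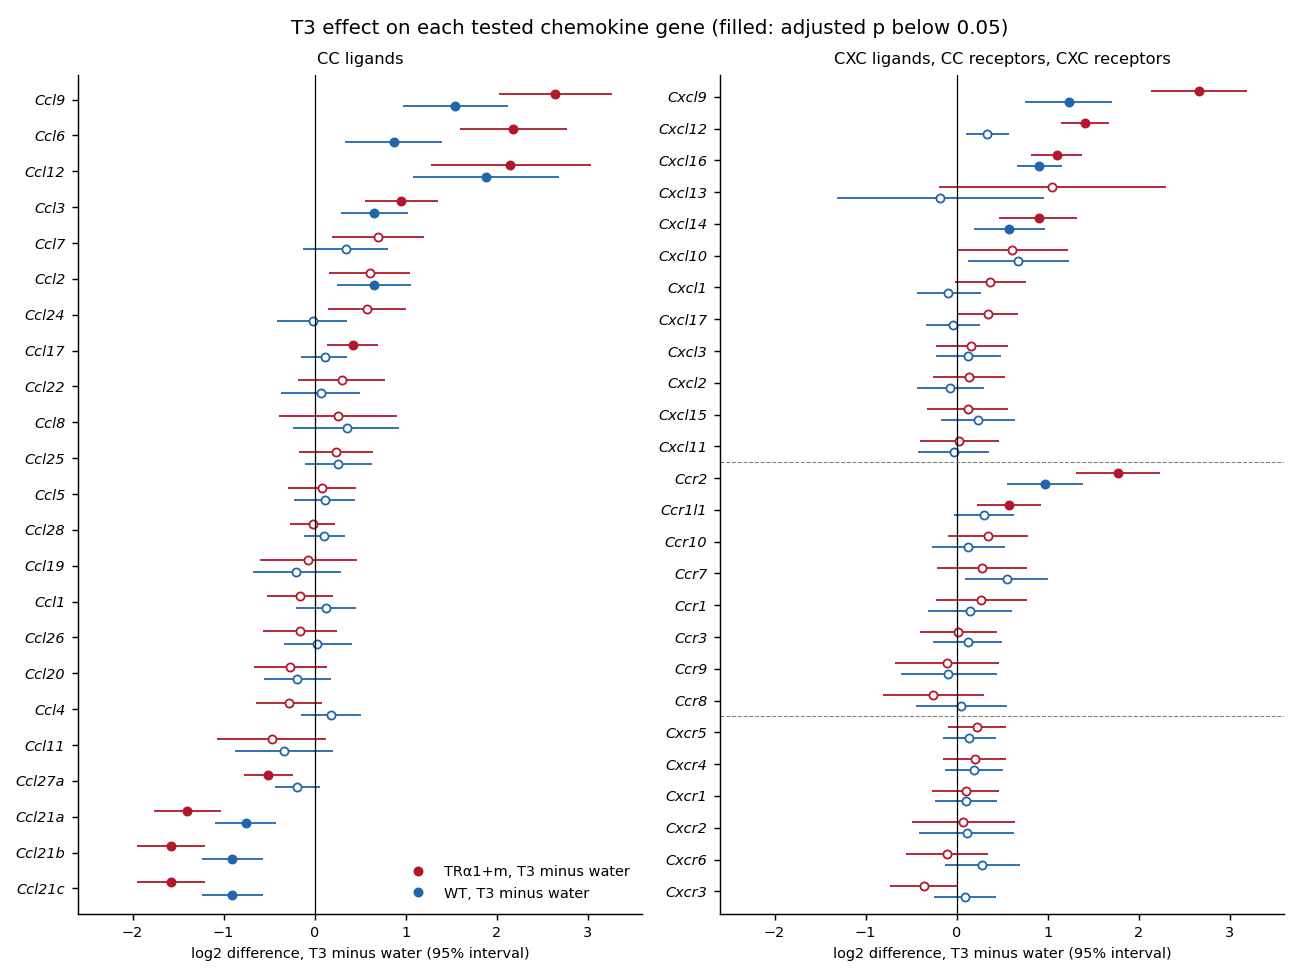
Difference in log2 level, T3 minus water, of the 49 tested chemokine and receptor genes with its 95% interval, in TRα1+m (red) and wild-type (blue) hearts. Filled points passed adjusted p below 0.05. Ccl9, Ccl6, Ccl12 and Cxcl9 lie farthest to the right and the Ccl21 genes farthest to the left.

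Among the ligands, the CC chemokines that act on monocytes and macrophages come first. Ccl9, a mouse CC chemokine that acts through Ccr1, measured 10.99, 12.38, 10.83, 10.77 and 11.14 in TRα1+m mice on T3, against 8.20, 9.04, 7.87, 8.76 and 9.03 on water. In wild-type mice its lowest, median and highest levels were 10.40, 10.86 and 11.41 on T3, against 8.54, 9.35 and 9.85 on water. Every treated mouse was above every untreated mouse of its genotype. The difference was 2.64 ± 0.30 (SE, n = 5 each; 6.24-fold, limma adjusted p = 7.4e-07) in TRα1+m and 1.54 ± 0.28 (n = 6 each; 2.92-fold, adjusted p = 0.00034) in wild type. Without the high mouse 2 of the treated TRα1+m group, Ccl9 still differed by 2.35 there.

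Ccl6, the neighbour of Ccl9 on chromosome 11 and likewise a mouse ligand of Ccr1, measured 9.66, 11.62, 9.58, 9.68 and 9.96 in TRα1+m mice on T3, against 8.08, 7.64, 7.87, 8.16 and 7.82 on water. Its lowest, median and highest levels in wild-type mice were 8.87, 9.10 and 9.36 on T3, against 7.74, 8.27 and 8.83 on water. The groups did not overlap in either genotype, and the same treated TRα1+m mouse 2 stood highest. The difference was 2.18 ± 0.28 (4.54-fold, adjusted p = 4.3e-06) in TRα1+m, or 1.80 without that mouse (adjusted p = 3.8e-07). In wild type it was 0.87 ± 0.26 (1.82-fold, adjusted p = 0.026). The wild-type call was lost without water mouse 5 or 6 (0.77 each, adjusted p = 0.07 and 0.067), without T3 mouse 3 or 5 (0.84 and 0.82, adjusted p = 0.053 and 0.057), and without the 2 arrays that stood apart (0.85, adjusted p = 0.066).

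Ccl12 measured 8.91, 8.62, 8.51, 8.90 and 8.38 in TRα1+m mice on T3, against 5.77, 6.39, 7.72, 6.08 and 6.58 on water. In wild-type mice its lowest, median and highest levels were 7.20, 8.06 and 9.17 on T3, against 5.21, 6.32 and 7.57 on water. All treated TRα1+m mice exceeded their controls, and the wild-type groups overlapped. The measured differences were 2.15 ± 0.42 (adjusted p = 0.00071) in TRα1+m and 1.88 ± 0.39 (adjusted p = 0.0013) in wild type. Both start from a level at the background, so no fold is given. Ccl3, a ligand of Ccr1 made by activated macrophages, lay near the negative-control median, at 6.74, 6.73, 6.53, 6.78 and 6.78 in TRα1+m mice on T3, against 5.82, 6.02, 5.83, 5.22 and 5.94 on water. It rose by 0.95 ± 0.19 (adjusted p = 0.0011) in TRα1+m and by 0.65 ± 0.18 (adjusted p = 0.014) in wild type, where the groups overlapped.

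Ccl2, the main monocyte attractant through Ccr2, averaged 6.89 ± 0.38 in TRα1+m mice on T3 and 6.28 ± 0.45 on water (SD), a difference of 0.61 that did not pass (adjusted p = 0.059). In wild-type mice it averaged 6.86 ± 0.26 on T3 and 6.21 ± 0.35 on water, a difference of 0.65 ± 0.20 (SE, adjusted p = 0.028). The difference of the 2 effects was -0.04 (95% interval -0.65 to 0.56), so the pass in wild type alone is no difference between genotypes. The wild-type call was lost without water mouse 4, 5 or 6 (0.61, 0.60 and 0.61, adjusted p = 0.063, 0.065 and 0.06), without T3 mouse 1 or 3 (0.62 and 0.57, adjusted p = 0.06 and 0.076), and without the 2 arrays that stood apart (0.64, adjusted p = 0.071). In TRα1+m it passed without water mouse 5 (0.79, adjusted p = 0.01), T3 mouse 4 (0.73, 0.027) or wild-type water mouse 2 (0.61, 0.038), and also after quantile normalization (0.61, 0.047), with negative-control centring (0.78, 0.013) and with means above 6 (0.61, 0.039). Ccl7, a further Ccr2 ligand that neighbours Ccl2, differed by 0.69 in TRα1+m (adjusted p = 0.059) and passed without water mouse 5 (0.87, 0.015) or T3 mouse 3 or 4 (0.81 and 0.84, 0.036 and 0.023).

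**Figure D3:**
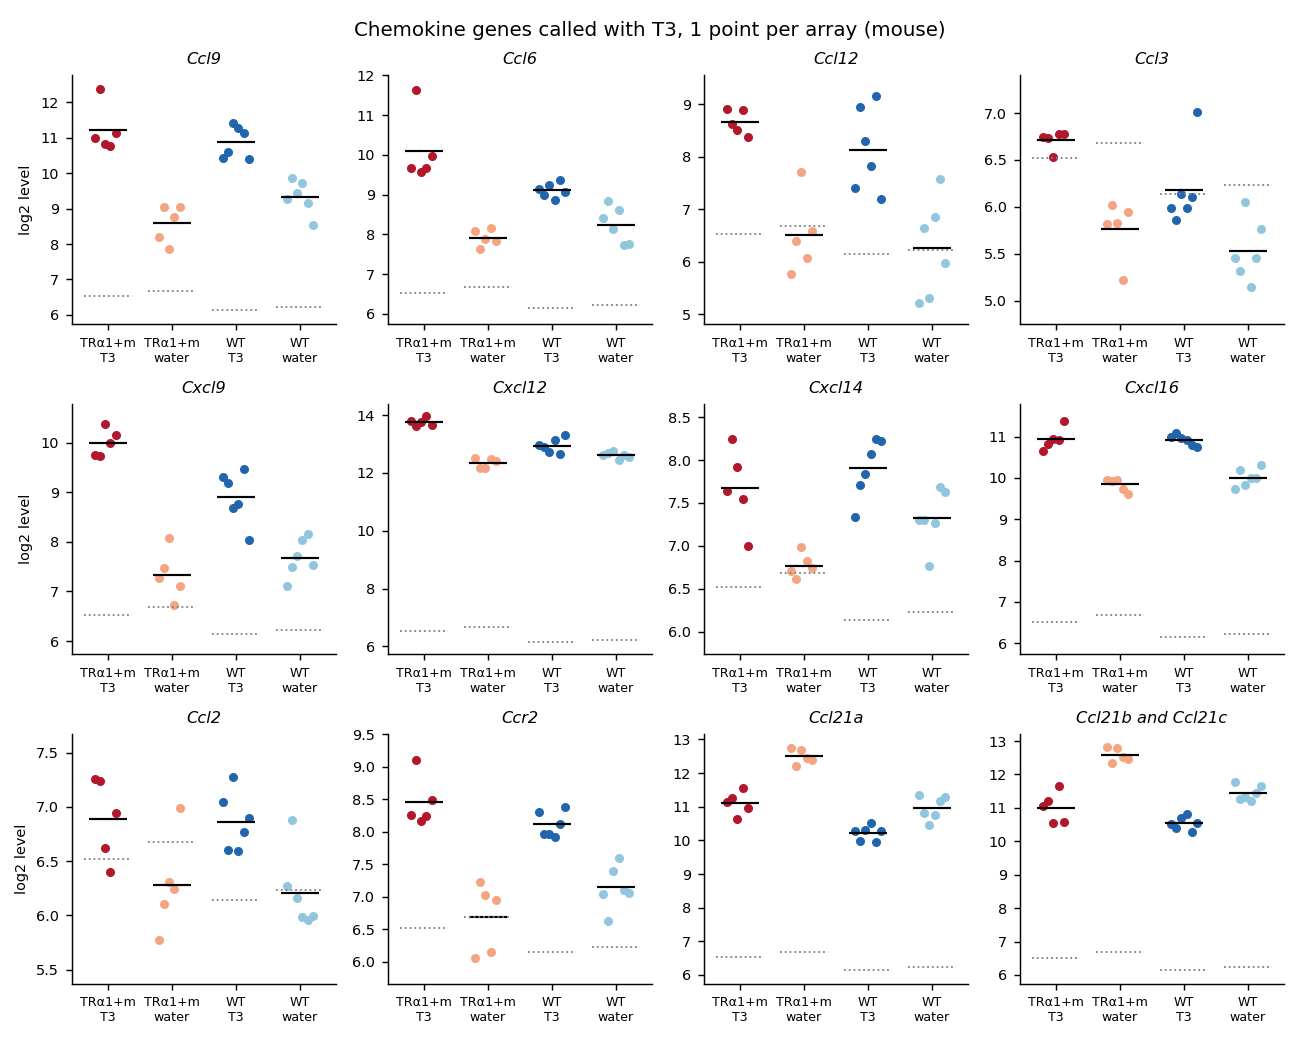
Log2 level of 12 measurements that passed the T3 test in at least 1 genotype, 1 point per mouse, in TRα1+m and wild-type (WT) mice on T3 or water. Bars are group means and dotted lines negative-control medians. Ccl9, Ccl6, Ccr2, Cxcl16 and the shared values of Ccl21b and Ccl21c separated treated from untreated mice in both genotypes. Ccl12, Ccl3, Cxcl9, Cxcl12, Cxcl14 and Ccl21a separated them in TRα1+m only, and Ccl2 in neither.

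Among the CXC ligands, Cxcl9 and Cxcl12 differed most. Cxcl9, an interferon-γ-inducible ligand of Cxcr3, measured 9.74, 9.72, 10.37, 9.99 and 10.15 in TRα1+m mice on T3, against 7.27, 7.47, 8.08, 6.72 and 7.11 on water. Its lowest, median and highest levels in wild-type mice were 8.04, 8.97 and 9.47 on T3, against 7.11, 7.63 and 8.15 on water. All treated TRα1+m mice lay above all other mice, while the wild-type groups overlapped by 1 low treated mouse. Cxcl9 rose by 2.66 ± 0.25 (6.34-fold, adjusted p = 5.2e-08) in TRα1+m and by 1.23 ± 0.23 (2.34-fold, adjusted p = 0.00059) in wild type. Its neighbours did not pass. Cxcl10, also a Cxcr3 ligand, stayed below the negative-control median in all groups and differed by 0.61 in TRα1+m (adjusted p = 0.19) and 0.67 in wild type (adjusted p = 0.11). Cxcl11, the third ligand of Cxcr3, averaged 4.71 in TRα1+m mice on T3 and 4.69 on water, and 4.37 in wild-type mice on T3 and 4.40 on water.

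Cxcl12, which retains and attracts cells through Cxcr4, measured 13.79, 13.63, 13.75, 13.97 and 13.65 in TRα1+m mice on T3, against 12.50, 12.18, 12.16, 12.49 and 12.41 on water. The lowest, median and highest levels in wild-type mice were 12.66, 12.93 and 13.30 on T3, against 12.43, 12.61 and 12.77 on water. All treated TRα1+m mice were above every mouse of the other 3 groups, and the wild-type groups overlapped. The rise was 1.41 ± 0.12 (2.66-fold, adjusted p = 1.6e-08) in TRα1+m. The wild-type difference of 0.33 ± 0.11 did not pass (adjusted p = 0.056) and passed without water mouse 3 (0.36, adjusted p = 0.045) or without T3 mouse 3 or 5 (0.38 and 0.39, adjusted p = 0.037 and 0.028). It also passed in the plain 2-factor model (adjusted p = 0.035), with means above 6 (0.028), with trended and robust variances (0.022) and with negative-control centring (0.42, adjusted p = 0.014).

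Cxcl16, a membrane-bound ligand of Cxcr6 that also takes up oxidised lipoprotein, measured 10.66, 10.83, 10.93, 10.91 and 11.38 in TRα1+m mice on T3, against 9.96, 9.93, 9.95, 9.73 and 9.61 on water. In wild-type mice the lowest, median and highest levels were 10.74, 10.94 and 11.08 on T3, against 9.73, 10.0 and 10.31 on water. Treated and untreated mice did not overlap in either genotype. It rose by 1.10 ± 0.13 (2.14-fold, adjusted p = 1.8e-06) in TRα1+m and by 0.91 ± 0.12 (1.88-fold, adjusted p = 1e-05) in wild type. Cxcl14, a chemokine of epithelia and stroma, averaged 7.67 ± 0.47 in TRα1+m mice on T3 and 6.77 ± 0.14 on water, and 7.91 ± 0.35 in wild-type mice on T3 and 7.33 ± 0.33 on water (SD). It rose by 0.90 ± 0.21 (SE, adjusted p = 0.003) in TRα1+m. In wild type the difference of 0.58 ± 0.19 passed narrowly (adjusted p = 0.043). That call was lost in 18 of 37 alternatives, among them leaving out any of water mice 1, 2, 3 and 4 (0.57, 0.57, 0.47 and 0.57) or T3 mice 3, 4, 5 and 6 (0.59, 0.55, 0.51 and 0.52).

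The Ccl21 ligands moved the other way. Ccl21a, which guides Ccr7-bearing dendritic cells and T cells into lymphatics, measured 11.13, 11.25, 10.63, 11.57 and 10.96 in TRα1+m mice on T3, against 12.76, 12.22, 12.70, 12.46 and 12.39 on water. Its lowest, median and highest levels in wild-type mice were 9.94, 10.28 and 10.51 on T3, against 10.45, 10.99 and 11.36 on water. Treated TRα1+m mice were all below untreated ones, and the wild-type ranges met at their edges. The difference was -1.40 ± 0.18 (2.64-fold lower, adjusted p = 3.8e-06) in TRα1+m and -0.75 ± 0.16 (1.69-fold lower, adjusted p = 0.0023) in wild type. The shared measurement of Ccl21b and Ccl21c differed by -1.58 ± 0.18 (2.99-fold lower, adjusted p = 6.2e-07) in TRα1+m and -0.91 ± 0.16 (1.87-fold lower, adjusted p = 0.00036) in wild type, with no overlap in either. A second Ccl21b probe set gave -1.63 in TRα1+m and -0.89 in wild type.

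Ccl27a, a ligand of Ccr10 known from skin that lies among the Ccl21 genes on chromosome 4, measured 8.29, 8.14, 8.50, 8.48 and 8.37 in TRα1+m mice on T3, against 8.91, 8.66, 8.85, 9.07 and 8.84 on water. It fell by 0.51 on the log2 scale in TRα1+m (SE 0.13, adjusted p = 0.0084), with no overlap, and the wild-type difference of -0.19 did not pass (adjusted p = 0.38). After centring on the negative controls the TRα1+m value was -0.34 (adjusted p = 0.084). Ccl19, the other ligand of Ccr7 and also on chromosome 4, lay below the negative-control median and differed by -0.07 in TRα1+m and -0.20 in wild type. Of 4 lymphatic endothelial markers, T3 lowered Prox1 by 0.88 in TRα1+m and 0.96 in wild type, raised Flt4 by 0.43 in wild type (0.28 in TRα1+m did not pass), and left Lyve1 and Pdpn short of the threshold. The list's median difference was 0.16 in TRα1+m and 0.19 in wild type. Array means of the 4 lay between 9.78 and 10.07 in TRα1+m mice on T3 and 9.75 and 10.08 on water, and between 9.35 and 9.76 in wild-type mice on T3 and 9.44 and 9.67 on water. The part of lymphatic cells in the Ccl21 result was not tested.

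Of the receptors whose group means all exceeded the negative-control median, only Ccr2 rose. Ccr2, the receptor of inflammatory monocytes, measured 8.26, 9.10, 8.16, 8.24 and 8.48 in TRα1+m mice on T3, against 6.06, 7.23, 7.03, 6.14 and 6.95 on water. Its lowest, median and highest levels in wild-type mice were 7.92, 8.05 and 8.38 on T3, against 6.63, 7.08 and 7.60 on water. Treated mice were above untreated mice in both genotypes. In TRα1+m mice on water its mean was only 0.01 above the negative-control median, with 3 of 5 mice above it, so the difference there is measured from a level at background. Ccr2 rose by 1.77 ± 0.22 (adjusted p = 2.7e-06) in TRα1+m and by 0.97 ± 0.20 (1.96-fold, adjusted p = 0.0016) in wild type. Ccr1, the receptor of Ccl3, Ccl6 and Ccl9, stayed below the negative-control median at 4.82 ± 0.16 in TRα1+m mice on T3 and 4.55 ± 0.38 on water, and 5.01 ± 0.44 in wild-type mice on T3 and 4.86 ± 0.54 on water (SD).

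Cxcr4, the signalling receptor of Cxcl12, averaged 8.23 ± 0.16 in TRα1+m mice on T3 and 8.04 ± 0.41 on water, and 7.38 ± 0.29 in wild-type mice on T3 and 7.18 ± 0.14 on water (SD), and did not pass in either genotype. Ccr7, the receptor of the Ccl21 ligands, differed by 0.28 in TRα1+m and 0.55 in wild type (adjusted p = 0.12) and passed in wild type without T3 mouse 2 (0.69, adjusted p = 0.037). Cxcr3, the receptor of Cxcl9, differed by -0.36 and 0.09. Ccr1l1 rose by 0.57 ± 0.17 (SE, adjusted p = 0.025) and Ccl17, a ligand of Ccr4, by 0.42 ± 0.13 (adjusted p = 0.035) in TRα1+m. Both lay below the negative-control median in every group, with overlapping mice. The Ccr1l1 call was lost on leaving out 1 of 5 mice (water 2, 4 or 5, T3 3 or 5, values 0.49 to 0.55) and the Ccl17 call on leaving out 1 of 6 (water 2, 3 or 4, T3 1, 2 or 3, values 0.33 to 0.42).

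The remaining tested members did not pass, and of those in this paragraph Cxcl13 and Ccl11 lay above the negative-control median in every group. Cxcl13, the B cell attractant of lymphoid follicles, varied most within groups, at 9.50, 11.96, 10.19, 8.24 and 9.81 in TRα1+m mice on T3, against 8.70, 9.68, 7.30, 7.55 and 11.21 on water. Its difference of 1.05 (adjusted p = 0.30) passed only without water mouse 5 (1.63, adjusted p = 0.044). Ccl11, the eotaxin that binds Ccr3, measured 8.79, 9.82, 8.73, 9.35 and 9.27 in TRα1+m mice on T3, against 10.20, 8.27, 9.90, 10.03 and 9.91 on water. A single low untreated mouse, mouse 2, set its result, since the difference was -0.47 with it (adjusted p = 0.34) and -0.82 without it (adjusted p = 0.012). Ccl24, a second eotaxin, differed by 0.58 in TRα1+m (adjusted p = 0.062) and -0.02 in wild type. Relative to the negative-control median, its mean on water was -0.35 in TRα1+m and -0.02 in wild type. In TRα1+m it passed in 7 of 37 alternatives. It did so without water mouse 1 (0.67, 0.041), wild-type water mouse 3 (0.58, 0.014) or the 2 arrays that stood apart (0.58, 0.012). It also passed with negative-control centring (0.74, 0.014), means above 6 (0.58, 0.04), array weights (0.55, 0.036) and a fit of the TRα1+m groups alone (0.58, 0.019). Cxcl17 differed by 0.34 in TRα1+m and passed without T3 mouse 1 (0.47, adjusted p = 0.034), below background throughout.

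Other members differed by little with T3. Above background, Ccl20, a ligand of Ccr6, differed by -0.27 in TRα1+m and -0.19 in wild type, Ccl25, a ligand of Ccr9, by 0.23 and 0.26, and Cxcl3, a neutrophil attractant, by 0.16 and 0.13. The other neutrophil attractants lay below the negative-control median in every group, where Cxcl1 differed by 0.37 in TRα1+m and -0.09 in wild type and Cxcl2 by 0.14 and -0.07. Their receptor Cxcr2 differed by 0.07 and 0.11, and Cxcr1 by 0.10 in both. Cxcr5, the receptor of Cxcl13, differed by 0.22 and 0.14, and Cxcr6, the receptor of Cxcl16, by -0.11 and 0.28. Ccl4 and Ccl5, ligands known from T cells and macrophages, differed by -0.28 and 0.08 in TRα1+m and by 0.18 and 0.11 in wild type. Ccl22, Ccl26, Ccl28 and Cxcl15 differed by 0.30, -0.16, -0.02 and 0.12 in TRα1+m and by 0.07, 0.03, 0.10 and 0.23 in wild type. None of the genes of this paragraph passed in either genotype. Cxcr1, Cxcr2, Cxcr5, Cxcr6, Ccl4, Ccl5, Ccl22, Ccl26 and Cxcl15 lay below the negative-control median in every group, as did Cxcl1 and Cxcl2. For all of these a lack of change is not shown.

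Macrophage and monocyte markers moved with the chemokine rises. Of 11 tested markers, 8 lay above the negative-control median in all groups and 0 below it in all. All 11 rose with T3 in TRα1+m (median 1.48) and 8 of 11 in wild type (median 0.75). Beside this and the other cell type lists, 8.24% of all probe sets tested rose in TRα1+m and 6.26% in wild type. The mean of the list lay between 9.43 and 9.67 in TRα1+m mice on T3, against 7.98 and 8.34 on water, and between 8.91 and 9.19 in wild-type mice on T3, against 8.06 and 8.68 on water. C1qa, a complement gene of tissue macrophages, rose by 2.14 in TRα1+m and 1.17 in wild type, and Csf1r, the macrophage growth factor receptor, by 1.77 and 1.10. Ly6c2, a marker of inflammatory monocytes, rose by 1.48 and 0.79. In whole heart, more cells of a type and more RNA per cell cannot be told apart, and the part of macrophages in the chemokine result was not tested. None of the 8 neutrophil markers, 6 tested T cell markers and 5 B cell markers passed in either genotype, and all 8 neutrophil and all 5 B cell markers lay below the negative-control median in every group. Of 6 NK cell markers 1 rose in each genotype (0 in wild type after quantile normalization). Of 5 tested dendritic cell markers 1 rose in wild type and 0 in TRα1+m, and of 6 mast cell markers 1 fell in each genotype. Of markers on the array, 5 of 6 NK cell, 5 of 6 dendritic cell and 4 of 7 T cell markers lay below the negative-control median in every group. For markers below it a lack of change is not shown. Fibroblast markers rose in 3 of 6 in TRα1+m and 5 of 6 in wild type, and endothelial markers in 5 of 7 in each. Smooth muscle and pericyte markers rose in 2 of 5 in TRα1+m and 3 of 5 in wild type. The part of these cell types in the chemokine result was not tested either.

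**Figure D4:**
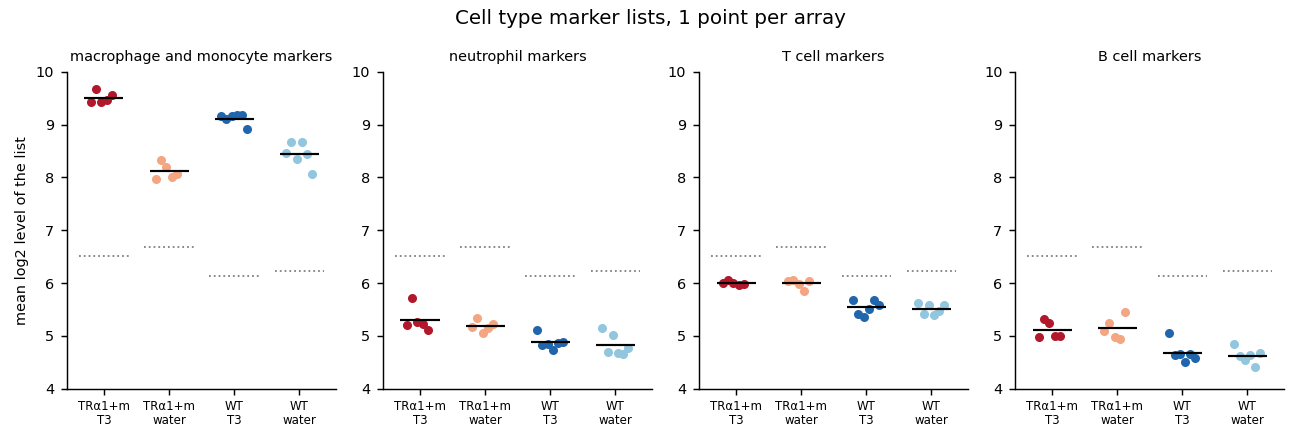
Mean log2 level of the macrophage and monocyte, neutrophil, T cell and B cell marker lists, 1 point per mouse, in TRα1+m and wild-type (WT) mice on T3 or water, with group means as bars and negative-control medians as dotted lines. The macrophage and monocyte list separated T3 from water in both genotypes, and the other 3 lists lay below the dotted lines. The separation was not particular to this list, since the endothelial list, not drawn, also separated T3 from water in both genotypes. Its array means were 12.66 to 12.76 against 12.00 to 12.18 in TRα1+m and 12.49 to 12.79 against 11.98 to 12.32 in wild type.

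Among regulators of chemokine genes, 9 of 21 rose with T3 in TRα1+m (median 0.37) and 7 of 21 in wild type (median 0.26), and 0 fell. Irf7, the interferon regulatory factor that drives type I interferon genes, averaged 10.74 in TRα1+m mice on T3 and 5.96 on water, and 9.15 in wild-type mice on T3 and 6.74 on water. Its level in TRα1+m mice on water lay below the negative-control median of 6.68, so no fold is given there. The measured difference was 4.78 ± 0.37 (adjusted p = 1.5e-09) in TRα1+m and 2.41 ± 0.33 (5.31-fold, adjusted p = 1.6e-05) in wild type. Stat2 and Irf9, partners in the interferon-stimulated factor that binds the ISRE, rose by 1.55 and 1.33 in TRα1+m and by 0.93 and 1.01 in wild type. Ifng, the inducer for which Cxcl9 is named, and Tnf lay below the negative-control median in every group and did not pass. Of 24 tested genes of chemokine receptor signalling, 10 rose in TRα1+m and 9 in wild type, with a median of 0.38 in both. Beside both lists, 8.24% of all probe sets tested rose in TRα1+m and 6.26% in wild type.

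Of 15 other genes of the chemokine system, 3 rose and 0 fell in TRα1+m, and 5 rose and 1 fell in wild type. Of all probe sets tested, 8.24% rose and 6.92% fell in TRα1+m, and 6.26% rose and 6.49% fell in wild type. The 1 list gene that fell, Ccrl2, a non-signalling chemerin-binding receptor, differed by -0.47 in TRα1+m (adjusted p = 0.098, and 0.038 after quantile normalization) and -0.54 in wild type (adjusted p = 0.038). Cx3cr1, the fractalkine receptor of monocytes and resident macrophages, rose by 1.51 in TRα1+m and 1.24 in wild type, with means below the negative-control median on water in both. Cmklr1, the chemerin receptor, rose by 1.56 and 1.39. Ackr3, the scavenging receptor of Cxcl12, rose by 1.34 (adjusted p = 2.7e-05) in TRα1+m and 0.64 (adjusted p = 0.02) in wild type. Its effect did not pass the test of a difference between genotypes (0.71 ± 0.27, adjusted p = 0.49).

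The T3 effect itself was compared between genotypes as the effect in TRα1+m minus that in wild type. Cxcl12 was the only member that passed, with a difference of 1.08 ± 0.17 (95% interval 0.73 to 1.43, limma adjusted p = 0.0025). Of all probe sets, 0.185% passed with a larger effect in TRα1+m and 0.0901% with a smaller one. The Cxcl12 value ranged from 1.02 to 1.16 over 36 alternatives, with adjusted p between 0.0001 and 0.0071. Before multiple testing, 9 of 49 members had limma p below 0.05, with Ccl21b and Ccl21c, which share identical values, counted separately. The share of all probe sets at this limit was not counted, so the 9 cannot be read as an excess. Cxcl9 differed by 1.44 ± 0.34 (95% interval 0.73 to 2.15, adjusted p = 0.087), and passed after quantile normalization (1.60, adjusted p = 0.019), where 0.294% of all probe sets passed upward and 0.123% downward, and without untreated TRα1+m mouse 3 (1.62, adjusted p = 0.034). The other wide values did not pass, among them Ccl6 at 1.32 (adjusted p = 0.22), Ccl9 at 1.10 (0.47), Ccr2 at 0.80 (0.48) and Ccl21b and Ccl21c at -0.67 (0.42). Beside these, C1qa differed by 0.97 ± 0.20 (adjusted p = 0.032) and Irf7 by a measured 2.37 ± 0.50 (adjusted p = 0.034), which starts from a level below background in TRα1+m mice on water. Their part in the Cxcl12 result was not tested.

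Genotype comparisons depended on how the arrays were scaled. On water, 23 of 49 members were higher and 3 lower in TRα1+m than in wild type (46.9% and 6.12%) as deposited, against 46.5% and 8.12% of all probe sets, so the members' shares were near the background. After quantile normalization, which removes the overall shift of the arrays, 8 were higher and 10 lower, against 18.9% and 21% of all probe sets. On T3, 25 members were higher and 0 lower (51% and 0%) as deposited, against 44.6% and 6.3%, and 11 higher and 5 lower after quantile normalization, against 16.7% and 19%. Only genes called under both scalings are described as higher or lower in what follows.

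**Figure D5:**
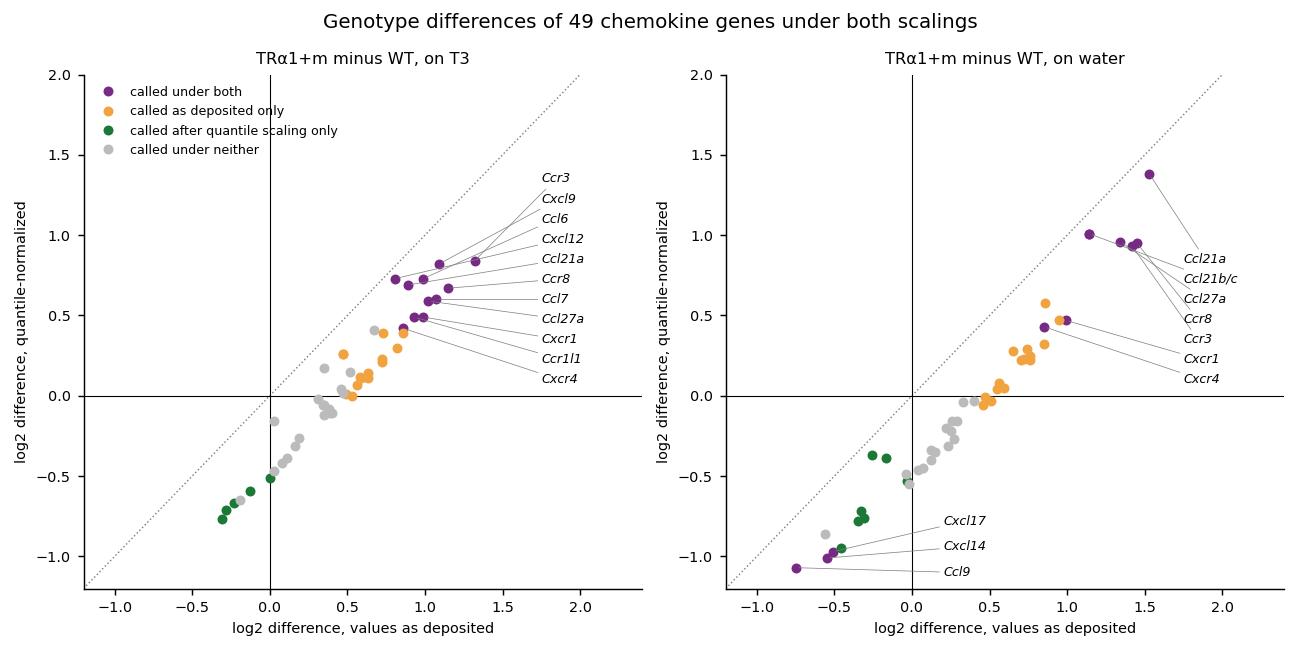
Genotype difference of 49 chemokine and receptor genes, TRα1+m minus wild type (WT) in log2 units, on T3 (left) and on water (right), with values as deposited on the x axis and after quantile normalization on the y axis. Points lie below the dotted line of equality because the arrays of TRα1+m mice were higher as a whole, and named genes passed under both scalings.

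On water, the Ccl21 genes and Ccl27a were higher in TRα1+m hearts. Ccl21a differed by 1.53 (adjusted p = 3.4e-07, 1.38 after quantile normalization), Ccl27a by 1.34 (adjusted p = 3.8e-08, 0.96 after it) and Ccl21b and Ccl21c by 1.14 (1.01 after it). The untreated mice of the 2 genotypes did not overlap for Ccl21a, with 12.22 to 12.76 in TRα1+m and 10.45 to 11.36 in wild type. Cxcr4 was higher by 0.85 (0.43 after quantile normalization) and did not pass when arrays were centred on their medians (0.35, adjusted p = 0.083). Ccr3, Ccr8 and Cxcr1 also passed under both scalings but lay below the negative-control median in every group. Ccl9, Cxcl14 and Cxcl17 were lower under both scalings, with differences of -0.75 (adjusted p = 0.033, -1.07 after quantile normalization), -0.55 (adjusted p = 0.021, -1.01) and -0.51 (adjusted p = 0.0068, -0.97), Cxcl17 below background throughout. As deposited, the Ccl9 call was lost without untreated TRα1+m mouse 1 or 3 (-0.65 and -0.57, adjusted p = 0.084 and 0.11) and without untreated wild-type mouse 2, 3 or 4 (-0.64, -0.73 and -0.67, adjusted p = 0.076, 0.051 and 0.069), and the Cxcl14 call without untreated wild-type mouse 5 (-0.48, adjusted p = 0.051). Ccr2, Cxcl9, Ccl6, Cxcl12 and Cxcl16 did not pass as deposited, and passed with differences of -0.95, -0.78, -0.72, -0.37 and -0.39 after quantile normalization and of -0.95, -0.85, -0.83, -0.76 and -0.66 with arrays centred on their medians. They also passed with negative-control centring. As deposited, Cxcl12 (-0.26) passed in the plain 2-factor model (adjusted p = 0.044), with trended and robust variances (0.035) and with two-stage adjustment (0.031), which also passed Ccr2 (-0.46, 0.035).

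On T3, Cxcl12 was higher in TRα1+m by 0.81 (adjusted p = 1.1e-05, 0.73 after quantile normalization), Cxcl9 by 1.09 (adjusted p = 0.00083, 0.82), Ccl6 by 0.99 (adjusted p = 0.0044, 0.73) and Ccl7 by 1.07 (adjusted p = 0.00065, 0.60). Ccl9, lower on water, differed on T3 by 0.35 and did not pass (adjusted p = 0.32). Ccl27a and Ccl21a were higher on T3 too, by 1.02 and 0.89 (0.59 and 0.69 after quantile normalization). Cxcr4 was higher by 0.86 as deposited (limma adjusted p = 0.00017) and also passed after quantile normalization. Ccr1l1, Ccr3, Ccr8 and Cxcr1 passed under both scalings as well but lay below the negative-control median in every group. Centred on array medians, Cxcl9, Ccl6, Ccl21a and Cxcr4 did not pass on T3 (0.59, 0.49, 0.39 and 0.36, adjusted p = 0.064, 0.15, 0.081 and 0.085). Cxcl16 averaged 10.94 in TRα1+m mice on T3 and 10.91 in wild-type mice on T3. It passed at -0.47 centred on array medians (adjusted p = 0.0091) and at -0.36 centred on negative controls (0.043). Cxcl14 did not pass as deposited (-0.23, adjusted p = 0.33). It passed at -0.67 after quantile normalization (0.013), -0.73 with array medians (0.0057) and -0.61 with negative controls (0.017). Cxcr3 passed at -0.51 after quantile normalization (0.013). Ccl1, Cxcl17 and Cxcr6 also passed with negative values after it, but below background. The macrophage and monocyte list on water had 1 gene higher and 3 lower as deposited, and 0 higher and 10 lower after quantile normalization, beside the differences of Ccr2, Cxcl9, Ccl6 and Ccl9 given above, and its part in them was not tested.

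Members that neighbour each other did not all pass together. In the chromosome 11 run Ccl2, Ccl7, Ccl11, Ccl12, Ccl8 and Ccl1, Ccl12 rose in both genotypes and Ccl2 passed in wild type. Ccl7, Ccl11, Ccl8 and Ccl1 did not pass in either. In TRα1+m, Ccl2 and Ccl7 differed by 0.61 and 0.69 (limma adjusted p = 0.059 for each). In the run Ccl5, Ccl9, Ccl6, Ccl3 and Ccl4 on the same chromosome, the middle 3 genes rose in both genotypes and the outer 2 did not pass. On chromosome 5 Cxcl9 rose while Cxcl10 and Cxcl11 did not pass. On chromosome 4 Ccl21a, Ccl21b and Ccl21c fell in both genotypes and Ccl19 did not pass. Ccl1, Ccl4, Ccl5, Ccl8, Ccl19, Cxcl10 and Cxcl11 lay below the negative-control median in every group, so for them a lack of change is not shown.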

How the data were processed

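Total RNA of 22 whole hearts was isolated by column, biotinylated with a WT Pico kit and hybridised to Clariom S Mouse arrays. The authors summarised the arrays with RMA in Transcriptome Analysis Console 4.0.1 and deposited log2 values per probe set. Whether all arrays were normalized together, and the genome build of the probe sets, were not given in the sources used here. Depth does not apply to arrays, and the number of mice limits precision. The 52 members and all lists were chosen with earlier results of these data known. Of 22206 gene probe sets, the 21092 with a mean log2 value above 4 were fitted with limma 3.58.1 in R 4.3.3 (4 group means, moderated variances), with Benjamini-Hochberg adjustment over all of them in each of 5 contrasts. This follows the log2 limit of the methods, with limma in place of a plain 2-factor model, which is an alternative. The text names every member called in at least 1 contrast and the 12 uncalled members with the highest means, and in other lists up to 4 called genes of smallest adjusted p. Markers and members named outside this rule were chosen after their values were seen. Alternatives were quantile, array-median and negative-control scaling, other filters, array weights, other variance models, two-stage adjustment, replicate number as a block, and fits that each lacked 1 array. Scripts were tested on simulated data.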

Additional observations from a re-analysis of the deposited data

Results flagged for a closer look

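Of 192 member-by-group sets tested, 13 held a mouse far from the rest of its group by Dixon's test, where chance flags about 1 in 20. Among TRα1+m mice on T3, mouse 2 was high for Ccl6 at 11.62 (others 9.58 to 9.96), for Ccl9 at 12.38 (others 10.77 to 11.14) and for Ccl19 at 6.61 (others 5.25 to 5.48). Mouse 4 of that group was low for Ccl1 at 4.16 (others 4.90 to 5.04) and for Cxcl11 at 3.95 (others 4.83 to 5.06), and mouse 3 was low for Ccl3 at 6.53 (others 6.73 to 6.78).

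Among TRα1+m mice on water, mouse 2 was low for Ccl11 at 8.27 (others 9.90 to 10.20) and mouse 4 for Ccl3 at 5.22 (others 5.82 to 6.02). Among wild-type mice on T3, mouse 1 was high for Ccl26 at 6.62 (others 5.30 to 5.59) and mouse 6 for Ccl3 at 7.01 (others 5.86 to 6.14). Among wild-type mice on water, mouse 2 was high for Ccl2 at 6.88 (others 5.96 to 6.27) and low for Ccl7 at 5.76 (others 6.25 to 6.54), and mouse 3 was low for Ccl24 at 5.28 (others 6.19 to 6.70).

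Cxcl12 was the member whose T3 effect differed between genotypes by the test of the difference itself, with 1.08 on the log2 scale in limma, higher in 5 of 5 treated TRα1+m mice than in any untreated one.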

How the results depend on the processing

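The genotype counts moved with the scaling, and the cause was not tested. On T3, 25 higher members became 8 with array medians, 11 with negative-control centring, 11 with quantile normalization and 16 with means above 6, and 0 lower became 7, 5 and 5 under the 3 scalings. On water, 23 higher became 7, 9, 8 and 14 in the same order, and 3 lower became 11, 10 and 10, with 1 at a fold of 1.5 or more and 5 with two-stage adjustment. Members with a larger T3 effect in TRα1+m numbered 2 in place of 1 with negative-control centring, quantile normalization, or trended and robust variances.

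Leaving out 1 mouse gave 18 to 28 higher and 0 to 0 lower on T3 between genotypes, 20 to 23 and 2 to 4 on water, 9 to 13 and 4 to 5 for T3 in TRα1+m, 7 to 10 and 3 to 3 for T3 in wild type, and 1 to 2 and 0 to 0 for the difference of T3 effects. The 16 other settings gave 9 to 16 higher and 3 to 4 lower for T3 in TRα1+m, and 6 to 10 and 2 to 3 in wild type.

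Of values that passed in at least one of the compared settings, those that changed sign were genotype differences. On T3, array-median centring gave -0.03 for Ccl21b and Ccl21c, -0.01 for Cxcl1, -0.47 for Cxcl16 (-0.36 with negative-control centring) and -0.5 for Cxcr3 (-0.51 with quantile normalization). On water, quantile normalization gave -0.03 for Ccl17, -0.01 for Ccl20 (-0.02 with array medians) and -0.06 for Cxcr3 (-0.04 with array medians, 0 with negative controls).

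The labels do not say whether replicate numbers pair the mice. Same-numbered pairs correlated above 0.1 in 4 of 6 for T3 in wild type and 1 of 5 for T3 in TRα1+m. Between genotypes this held for 3 of 5 pairs on water and 0 of 5 on T3. A cutoff on single pairs does not settle whether the mice were paired. With replicate number as a block, 11 members rose and 4 fell in TRα1+m, 9 and 3 in wild type, 27 and 0 differed on T3, 23 and 2 on water, and 1 and 0 in T3 effect. For T3 in wild type, the block called Ccr7 (adjusted p = 0.023) and lost Cxcl14 (adjusted p = 0.059), and on water it lost Cxcl14 too (adjusted p = 0.053). Levels near the negative controls limit Ccl2, Ccl3, Ccl12 and most receptors.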
